A study of Mus musculus with 2 samples.

Results

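The wound keratins Krt6a, Krt6b, Krt16 and Krt17 were examined in open chromatin of sorted basal cells from mouse skin epidermis, measured by ATAC-seq, in which a transposase cuts DNA where chromatin is accessible. Peaks were taken as belonging to a gene when they overlapped it, or when it was the nearest protein-coding gene within 50 kb. This gave 12 of the 84594 distinct peaks of the deposited table, 6 for Krt6a, 2 for Krt16, 4 for Krt17 and 0 for Krt6b. The control library came from epidermis with the genotype label WT, and the ablation library from epidermis labelled as having lost cells of the basal lineage. Cells of both had been sorted as high in α6 integrin, negative for CD34 and Lrig1, and positive for the fluorescent reporters of the K14 tracing. What was used to ablate cells, how long afterwards the skin was taken and the age of the animals are not stated in the labels. The comparison bears on how chromatin changes in basal cells whose clones expand after neighbouring cells are lost. There was 1 library per group, so the spread between animals is unknown and differences between the libraries are described without a test.

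Keratins are the intermediate filament proteins of epithelia and assemble as pairs of 1 type I and 1 type II chain. Basal keratinocytes of resting epidermis make the pair Krt5 and Krt14, and suprabasal cells make Krt1 and Krt10. Krt6a and Krt6b (type II) and Krt16 and Krt17 (type I) are scarce in resting interfollicular epidermis and are induced in keratinocytes at wound edges, while hair follicles hold them without injury. Accessibility of a gene is not its expression, and in bulk cells more cells with an open site and a more open site per cell cannot be told apart.

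Nuclear peaks held 17056996 reads in control and 12463908 in ablation, and the mitochondrial genome took a further 7.31% and 31.2% of the reads in peaks. Of the nuclear peaks 76147 passed a filter on low signal and are called tested peaks. Levels are normalized reads per peak as deposited, and each library's values are whole reads times 1 factor. Wound keratin peaks held between 12 and 1168 reads. Brackets give 95% intervals for counting error alone. They treat every read as independent, so any PCR copies among the reads would make them too narrow. Scaling both libraries to equal totals, with mitochondrial peaks counted in, moved the median log2 ratio of all tested peaks from -0.01 to -0.35. Such a scale moves all genes nearly alike, so values near 0 change sign with it. For the wound keratins the values relative to that median are also given, and other gene lists are also counted against the median gene.

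Across the 3 genes with peaks, Krt6a and Krt17 had more deposited signal in ablation and Krt16 had less, and all of these differences were small. Summed over its peaks, Krt6a went from 634 normalized reads in control to 769 in ablation, a ratio of 1.21 (1.10 to 1.33). Krt17 went from 1357 to 1526, a ratio of 1.12 (1.05 to 1.20). Krt16 went from 923 to 834, a ratio of 0.904 (0.830 to 0.984). Among the 16272 genes with a tested peak, the log2 ratio of Krt6a (0.28) lay at the 86.8th percentile, that of Krt17 (0.17) at the 80.3rd and that of Krt16 (-0.15) at the 34.8th. The median gene stood at -0.07, and 38.4% of genes lay above 0. Under that scaling, the log2 ratios of Krt6a and Krt17 turned negative, at -0.06 and -0.17, while relative to the median of all peaks they were 0.29 and 0.18, as before. With nuclear peaks alone scaled to equal totals, Krt6a was at 0.37 and Krt17 at 0.26. Krt16 was at 0.03 after a loess correction for signal level and at 0.03 as the median of its peaks, so its direction too depends on the processing. None of the 3 genes reached 1.5-fold, which 4.65% of genes did upward and 1.54% downward.

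A ratio between the ratios of 2 genes does not depend on how the libraries were scaled. The ratio of Krt6a exceeded that of Krt16 1.34-fold (1.18 to 1.52), and the ratio of Krt17 exceeded that of Krt16 1.24-fold (1.12 to 1.39). Both intervals exclude 1 for counting error, so the summed signal of Krt16 stood apart from the other two in these libraries. A ratio of ratios still depends on the trend of ratio with signal level, and the Krt16 end peak is the strongest of the set. Krt6a and Krt17 could not be told apart, with 1.08 between them (0.960 to 1.21). All of these are differences between 2 libraries, and their spread over animals was not measured.

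Per kilobase of peak, Krt16 was the most open of the 3 genes, followed by Krt17 and Krt6a, in both libraries. Krt16 had 852 normalized reads per kb in control (807 to 900) and 770 in ablation (722 to 822). Its place rests on its end peak, at 1219 and 1057 per kb. The other peak of Krt16 had 243 and 294, below the value of Krt17 in each library. Krt17 had 448 (428 to 468) and 504 (480 to 528). Krt6a had 202 (189 to 216) and 245 (229 to 262). Counting intervals of neighbouring genes in this order did not overlap in either library, and the distance between Krt16 and the other two was smaller in ablation. The plot of signal by peak shows the same levels site by site.

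**Figure D1:**
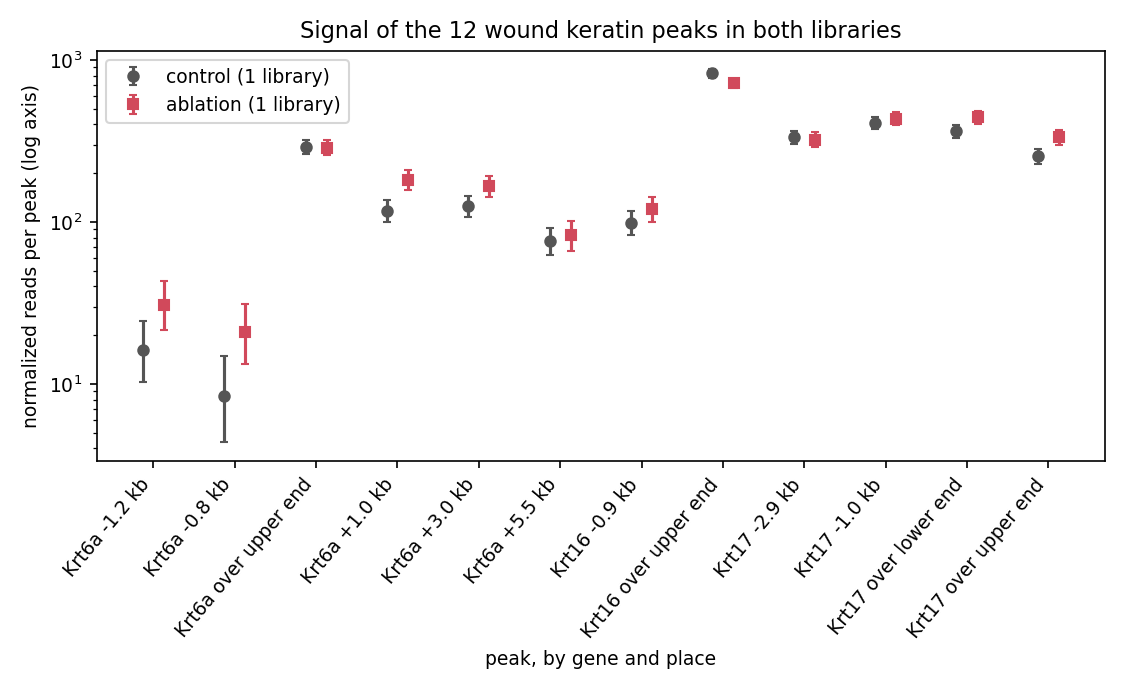
Normalized reads (log axis) of the 12 wound keratin peaks in the control library (circles) and the ablation library (squares), with 95% Poisson intervals for counting error. Peaks are named by gene and by their distance below (-) or above (+) the gene in coordinates, or as lying over its lower or upper end. The strongest is the Krt16 peak over the upper gene end, at 824 and 715, and the 2 weakest lie below Krt6a.

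Krt6a, on chromosome 15 at 101689928 to 101694305, encodes a type II keratin widely used as a marker of activated epidermis. Its strongest peak, at 101694106 to 101694928, covers the upper end of the gene, 199 bp inside it. That peak had 291 normalized reads in control and 288 in ablation, a ratio of 0.987 (0.850 to 1.14). The interval includes 1, so no difference was detectable there at this depth.

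The other 5 peaks of Krt6a all lay outside the gene and all had more signal in ablation. Beyond the upper end, the peak at 101695337 to 101696019, 1032 bp from the gene, had 117 and 181 normalized reads, a ratio of 1.55 (1.25 to 1.91). The next, at 101697334 to 101697950, had 125 and 166, a ratio of 1.33 (1.07 to 1.64). The furthest, at 101699768 to 101700188, had 76.2 and 82.5, a ratio of 1.08 (0.810 to 1.44) with 1 inside its interval. Among these 3 peaks beyond the end, the ratio was highest in the one nearest the gene and lower in each one further out, though these intervals overlap. The peak over the gene end itself, at 0.987, stood below all 3.

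Below the lower end of Krt6a lie the 2 weakest peaks of the set. The peak at 101688309 to 101688682 had 16.2 normalized reads in control and 30.8 in ablation, from 23 and 34 reads, a ratio of 1.90 (1.09 to 3.38). The peak at 101688933 to 101689157 had 8.47 and 20.9, from 12 and 23 reads, a ratio of 2.46 (1.18 to 5.43). Their intervals are wide because the reads are few. The second has a control value under the minimum mean signal of the filter (13.96) and was kept only through its value in ablation. Summed, the 3 peaks beyond the upper end had a ratio of 1.35 (1.18 to 1.54). The 5 flanking peaks together, that weak peak included, exceeded the end peak in ratio 1.42-fold (1.17 to 1.73). Within this gene the difference between libraries thus lay in the flanks. With only the overlapping peak, or only the strongest one, the log2 ratio of Krt6a was -0.02.

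Krt6b, on chromosome 15 at 101676023 to 101680293, encodes a protein nearly identical to that of Krt6a. No peak was assigned to it, and its accessibility was not analysed here. The nearest listed peak below it ends 85789 bp away and the nearest above it starts 8016 bp away, close to Krt6a. The 98.1 kb between these 2 peaks is free of listed peaks, where the median gap between neighbouring peaks was 7250.5 bp and 4.82% of gaps were at least as long. Peak names run in order along the chromosome, and 2 numbers are skipped in this stretch, 3.80% of all numbers being absent from the table. In the genome as a whole 23.7% of protein-coding genes had no assigned peak. Reads from near-identical copies may be placed on either copy or dropped, so the division of signal between Krt6a and Krt6b is uncertain, and the part of this in the values was not tested.

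Krt16, on chromosome 11 at 100246091 to 100248902, encodes the type I partner of the Krt6 proteins. Its peak over the upper gene end, at 100248823 to 100249499, was the strongest of all 12 and reached the 97.9th percentile of signal among tested peaks. It had 824 normalized reads in control and 715 in ablation, a ratio of 0.867 (0.791 to 0.950). This is the only wound keratin peak whose counting interval lay below 1. Its log2 ratio was -0.21, in the highest signal decile of tested peaks, where the median was -0.18. After the loess correction for signal level it was -0.005, so the peak stood where peaks of like signal stood. The other peak of Krt16, at 100244764 to 100245171 and 920 bp below the gene, had 98.8 and 120, a ratio of 1.21 (0.948 to 1.55). The 2 peaks differed 1.40-fold in ratio (1.07 to 1.82), so the lower sum of Krt16 rests on its end peak. Taken as the median of its 2 peaks, the log2 ratio of Krt16 was 0.03.

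Krt17, on chromosome 11 at 100256215 to 100261029, encodes a type I keratin of hair follicles, other skin appendages and injured epidermis. The ratios of its 4 peaks increase with their coordinates, with overlapping intervals between neighbours. The lowest in coordinates, at 100252772 to 100253280, had 334 normalized reads in control and 321 in ablation, a ratio of 0.962 (0.836 to 1.11). The next, at 100254236 to 100255175, had 408 and 433, a ratio of 1.06 (0.938 to 1.20). Both intervals include 1, and both peaks lie between Krt16 and Krt17.

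The peaks that touch Krt17 had the higher ratios. The peak over its lower end, at 100255590 to 100256231 with 16 bp inside the gene, had 361 normalized reads in control and 441 in ablation, a ratio of 1.22 (1.08 to 1.38). The peak over its upper end, at 100260832 to 100261775, had 254 and 332, a ratio of 1.31 (1.13 to 1.52). With only these overlapping peaks the log2 ratio of Krt17 was 0.33. At the upper end, Krt17 thus had a higher ratio than its other peaks, which stood at 0.829 of it (0.702 to 0.979), the opposite order to Krt6a and Krt16.

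**Figure D2:**
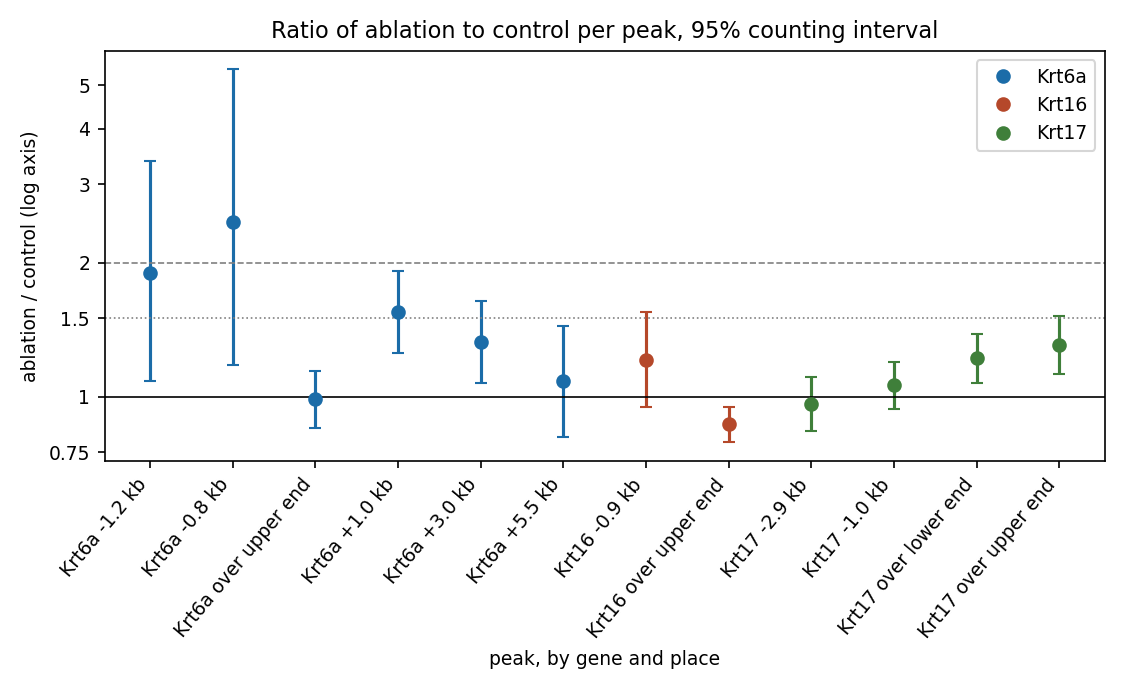
Ratio of ablation to control (log axis) for each wound keratin peak, coloured by gene, with exact 95% intervals for counting error. The dotted and dashed lines mark 1.5-fold and 2-fold. Of the 12 intervals 6 lie above 1, 1 lies below it and 5 include it. Intervals are narrower where reads are many. The share of all tested peaks with intervals off 1 was not counted, so these counts have no background. Among the 6 is the Krt6a peak at 2.46-fold, which passed the filter only through ablation.

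All 12 peaks passed the filter on low signal, the weakest with a mean of 14.7 normalized reads against a minimum of 13.96. That peak, below Krt6a, had 8.47 in control and 20.9 in ablation, so it passed only through ablation. The same peak is the single 2-fold one. The log2 ratio was above 0 in 9 of the 12, against 48.7% of all tested peaks, and its median was 0.28 against -0.01. A single peak (1 of 12) was at least 2-fold higher in ablation, where 4.48% of tested peaks were, and 0 were 2-fold lower, where 1.88% were. At 1.5-fold, 3 of 12 were higher, against 13.0% of tested peaks, and 0 were lower, against 7.47%. The count at 2-fold is near the background, and the count at 1.5-fold rests on 3 peaks that all belong to Krt6a. Scaled to equal table totals, 5 of the 12 log2 ratios were above 0 and the median was -0.06, still 0.29 above that of all peaks. Scaled to equal nuclear totals, 11 of the 12 were above 0 and the median was 0.37, again 0.29 above that of all peaks.

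Ratios fell as signal rose in the whole table, with a median log2 ratio of 0.20 in the lowest signal decile of tested peaks and -0.18 in the highest. The 2 weak peaks below Krt6a fall in the 2 lowest deciles, where 29.0% and 26.1% of peaks were at least 1.5-fold higher. The Krt6a peak at 1.55-fold falls in decile 8, where 2.69% were. Most wound keratin peaks are strong, with a median mean signal of 219 normalized reads against 66.1 for all tested peaks. After a loess correction, which centres the ratio at every signal level, 11 of the 12 peaks lay above 0. Their median was 0.35, against -0.002 for all tested peaks. Krt16 then stood at a log2 ratio of 0.03, Krt17 at 0.29 and Krt6a at 0.31. How far the values of the weak peaks follow their signal was not tested.

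**Figure D3:**
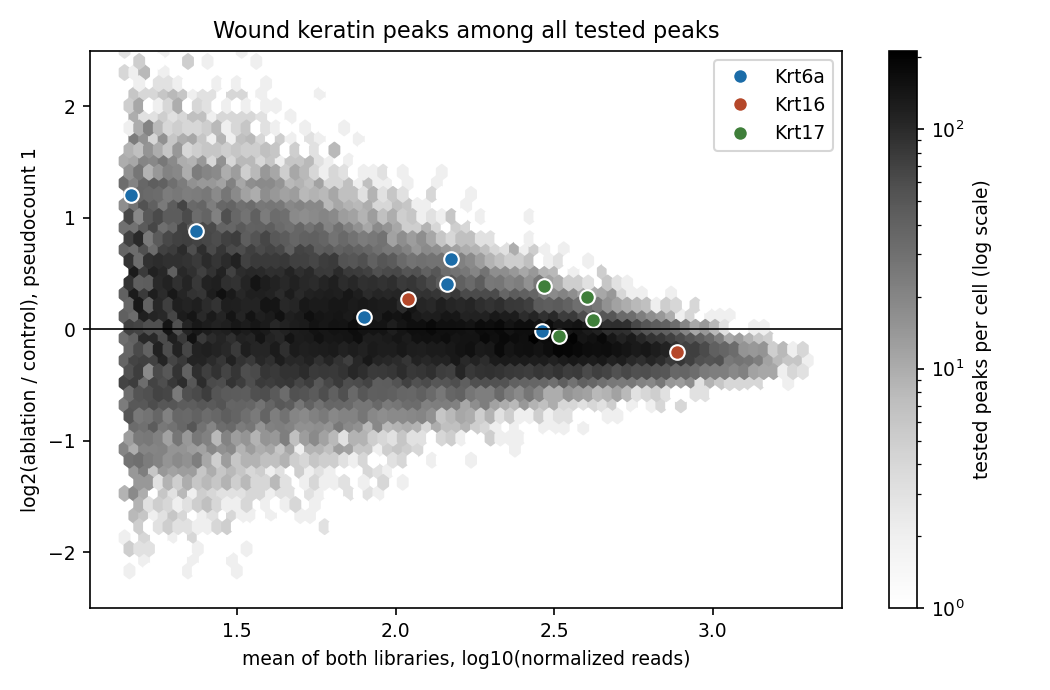
Log2 ratio of ablation to control (pseudocount 1) against the mean of both libraries (log10 normalized reads) for all tested peaks (grey, darker for more peaks) and the 12 wound keratin peaks (coloured). The drawn range leaves out 91 tested peaks and none of the wound keratins. The coloured points lie from -0.21 to 1.21, most of them in the strong range, where the grey cloud is narrow and centred a little below 0.

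The table consists of 3 runs, each sorted by peak name, whose meaning is not stated. Of the wound keratin peaks 11 are first listed in the third run and 1 in the first, the Krt6a peak at 2.46-fold. In the first run 90.8% of tested peaks had a ratio above 1, in the third 47.1%. With third-run peaks alone, Krt6a had a log2 ratio of 0.26 and 0 wound keratin peaks reached 2-fold, against 0.28 and 1 with all.

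In position the 3 genes were alike. Each had a peak over its upper end, by 79 to 199 bp, and no listed peak lay wholly inside any of them. Over all protein-coding genes 27.4% had a peak over the upper end. The upper end is where a gene on the minus strand starts. Of 35 keratin genes with a start in the RefSeq promoter table (GRCm38.p6), 33 are on that strand, the nearby Krt5, Krt75, Krt14 and Krt42 among them. Of those 35 genes 8 had a peak over the start listed there, including Krt5 and the suprabasal keratins Krt2 and Krt10. The listed start of Krt14 lies inside the gene and is not among the 8, although a peak covers the upper end of that gene too. The strand of the wound keratins themselves was not taken from a table. Summed over the 3 genes, the upper-end peaks had a ratio of 0.974 (0.910 to 1.04) and the 9 other peaks 1.16 (1.09 to 1.24). In ratio the genes were not alike. Krt16 gave 824 of the 1370 normalized reads at the upper ends in control. Krt17 went the other way, with 1.31 at its upper end and 1.08 over its other peaks. The 9 include the weak Krt6a peak that passed the filter only through ablation.

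**Figure D4:**
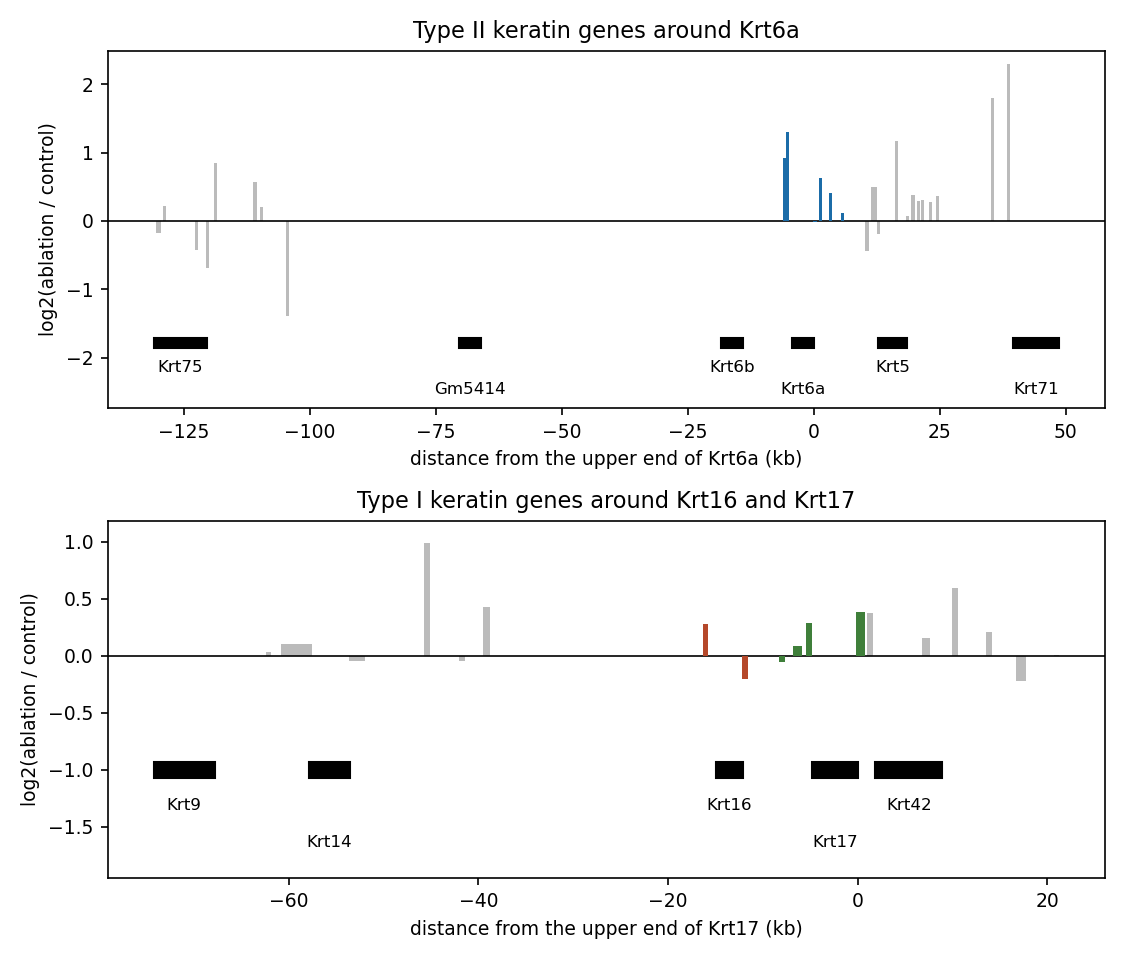
Log2 ratio of ablation to control for each peak (bars) around Krt6a (top) and around Krt16 and Krt17 (bottom), against distance in kb from the upper end of Krt6a or Krt17, with genes as black boxes. Wound keratin peaks are coloured, those assigned to other genes are grey, and bars of peaks shorter than 0.6 kb are drawn 0.6 kb wide. The stretch from Krt75 to Krt6a, with Krt6b in it, has no bar over 98.1 kb.

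The assignment by nearest gene sets the borders. The outermost Krt6a peak is 5463 bp from Krt6a and 6881 bp from Krt5. The next peak up, 10283 bp from Krt6a, counts to Krt5 and had a ratio of 0.735 (0.615 to 0.876). A peak 1096 bp above Krt17 and 296 bp from Krt42 counts to Krt42 and had a ratio of 1.29 (1.02 to 1.65), close to that of the Krt17 peak beside it. The lowest Krt17 peak is 2935 bp from Krt17 and 3870 bp from Krt16.

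Basal keratins, the resting partners, were compared over their own peaks. Krt5, the neighbour of Krt6a, had a ratio of 1.16 (1.09 to 1.22) over 10 peaks, and the ratio of Krt6a to it was 1.05 (0.938 to 1.17). Krt14, the neighbour of Krt16, had 1.04 (0.990 to 1.09) over 6 peaks. The ratio of Krt16 to that of Krt14 was 0.871 (0.790 to 0.960), and that of Krt17 to Krt14 was 1.08 (0.9998 to 1.18). Krt15, the third basal keratin, had 1.12 (0.985 to 1.27). So Krt6a could not be told apart from its neighbour Krt5 by counting error, nor Krt17 from Krt14, and Krt16 was lower than Krt14.

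Keratins of differentiated layers had lower ratios. All 4 suprabasal keratins were below 1, Krt1 at 0.876 (0.784 to 0.979), Krt77 at 0.844 (0.764 to 0.932), Krt10 at 0.767 (0.705 to 0.834) and Krt2 at 0.757 (0.689 to 0.830). Among the other type II keratin genes of the cluster, 5 of 14 with a tested peak had log2 ratios above 0, from Krt71 at 0.73 and Krt79 at 0.44 to Krt84 at -0.43 and Krt83 at -0.62. Among the other type I genes 3 of 19 did, from Krt27 at 0.66 and Krt19 at 0.27 to Krt36 at -0.87 and Krt34 at -1.33. Krt34 rests on 1 peak. Against these families, 2 of the 3 wound keratins with peaks and 3 of 3 basal keratins lay above 0, and the same numbers lay above the median gene, as did 7 of 14 type II, 4 of 19 type I and 0 of 4 suprabasal genes.

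Of 24 other keratin genes with at least 3 tested peaks, Krt19 (0.27), a keratin of simple epithelia and follicles, and Krt5 (0.21) were nearest to Krt6a in log2 ratio. Krt15 (0.16) and the companion layer keratin Krt75 (0.16) were nearest to Krt17, and Krt42 (-0.15) and the hair keratin Krt32 (-0.18) to Krt16. Likeness here is the difference in 1 log2 ratio from 2 libraries. Krt42, next to Krt17 on the chromosome, had a ratio of 0.901 (0.862 to 0.943), and that of Krt17 exceeded it 1.25-fold (1.15 to 1.35).

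**Figure D5:**
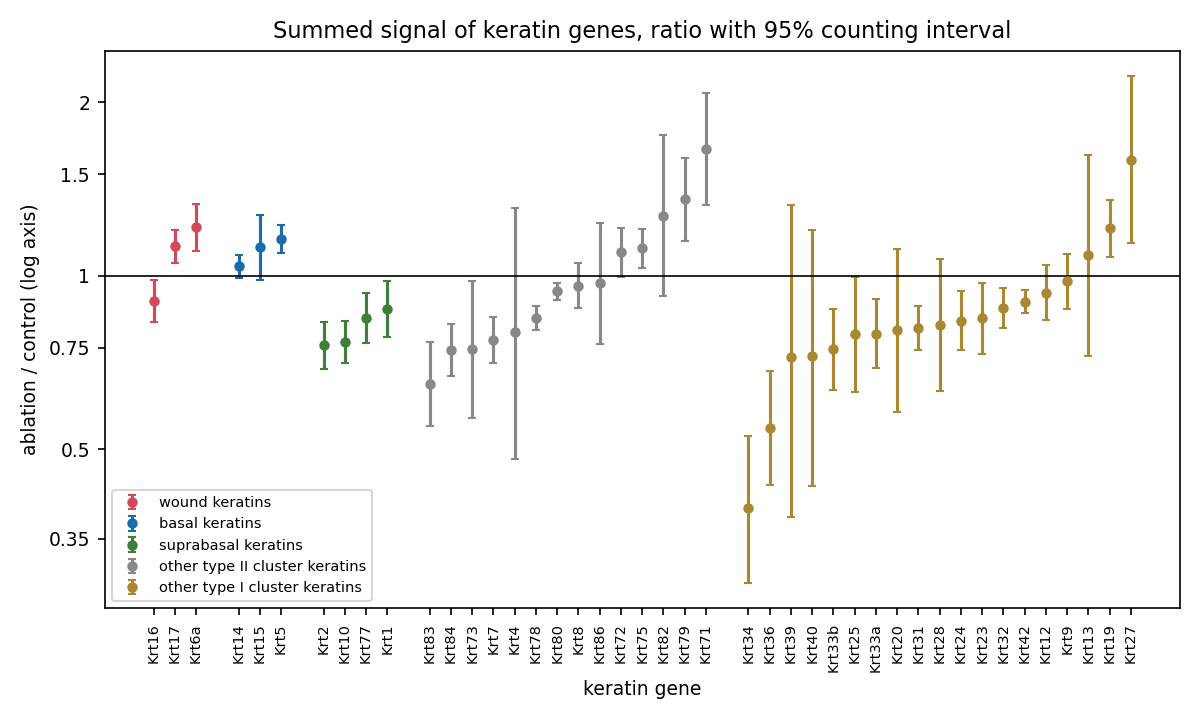
Ratio of ablation to control (log axis) of the summed signal of each keratin gene with a tested peak, by family, with exact 95% intervals for counting error. Krt6a and Krt17 lie with the basal keratins between 1.04 and 1.21, Krt16 lies at 0.904, and the 4 suprabasal keratins lie between 0.757 and 0.876.

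Other genes of the activated keratinocyte state, a list of 16 that includes alarmins, cytokines and EGF receptor ligands, had a median log2 ratio of 0.05, and 10 of 16 were above 0 against 38.4% of all genes, with 10 above the median gene. One of them was past 1.5-fold, Lcn2, which encodes an iron-binding antimicrobial protein, at 2.14-fold (1.30 to 3.59) from 1 peak. Sprr1b, a precursor of the cornified envelope, stood at 1.29-fold (1.11 to 1.504). At the other end were Il1a, an alarmin cytokine stored in keratinocytes, at 0.844 (0.753 to 0.946) and Hbegf, an EGF receptor ligand, at 0.897 (0.844 to 0.953). Of the 113 peaks of this list 18 (15.9%) were at least 1.5-fold higher, against 13.0% of all tested peaks, and 6 (5.31%) lower, against 7.47%, so both shares are near the background.

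Regulators linked to these keratin genes, a list of 22 with AP-1, NF-kB, p63, Stat3, Nrf2 and nuclear receptor genes, had a median of -0.11, and 3 of 22 lay above 0. None reached 1.5-fold in either direction. The highest were Gli1, a transcription factor of Hedgehog signalling, at 1.11-fold (0.975 to 1.26), and the NF-kB subunit gene Nfkb1 at 1.04-fold (0.993 to 1.09), both with 1 inside the interval. The lowest were the AP-1 gene Fos at 0.824 (0.799 to 0.850) and Klf4, a transcription factor of barrier formation, at 0.800 (0.759 to 0.842). Of the 22 genes 9 lay above the median gene, which stood at -0.07.

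Marker genes bearing on the sort were also listed, and hair follicle cells were of interest because they hold Krt6 proteins, Krt16 and Krt17 without injury. Krt14 had the highest summed signal of the basal keratins, 2826 normalized reads in control and 2932 in ablation. Outside the basal list, Krt80, Krt42 and Krt78 had higher sums in control, 5660, 3303 and 3153. Sums grow with the number and length of peaks, so the rank of Krt14 does not measure how pure the sort was. All 8 markers of the outer root sheath and companion layer had a tested peak, with a median log2 ratio of 0.07. Of these, 7 lay above 0, against 38.4% of all genes. The highest were Sox9 at 1.82-fold (1.62 to 2.05) and Lgr5 at 1.72-fold (1.21 to 2.45). The lowest were Barx2 at 1.01-fold (0.953 to 1.06) and Nfatc1 at 0.946 (0.910 to 0.982). Krt75 stood at 1.12-fold (1.03 to 1.21). Summed signal per gene of these markers ran from 41.6 to 4471 normalized reads in control and from 71.7 to 4228 in ablation. The part of follicle cells in the wound keratin values was not tested.

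Markers of cells outside the epithelium were less complete, and 3 of these 4 lists had medians above the median gene, the endothelial one above the log2 ratio of Krt6a. Melanocyte markers had 6 of 8 genes with a tested peak (not Tyr and Kit), 2 above 0 where 38.4% of all genes were, a median log2 ratio of -0.14, and sums from 83.3 to 1648 in control and 58.0 to 1481 in ablation. Langerhans and T cell markers had 7 of 8 (not Cd3g), 4 above 0 and a median of 0.12. Cd3e stood at 1.35-fold (1.14 to 1.60) and Itgam at 0.780 (0.686 to 0.886). Sums in this list ran from 13.4 to 1456 in control and from 28.1 to 1377 in ablation. Fibroblast markers had 5 of 8 (not Col1a2, Col3a1 and Lum), 4 above 0, a median of 0.13, and sums from 8.47 to 363 and from 22.7 to 358. Endothelial markers had 6 of 8 (not Cdh5 and Emcn), 4 above 0, a median of 0.33 with Tie1 at 2.36-fold (1.89 to 2.95), Flt1 at 1.47-fold (1.33 to 1.63) and Tek at 0.646 (0.569 to 0.733), and sums from 29.6 to 2645 and from 41.7 to 2531. The part of such cells in the wound keratin values was not tested. The highest genes of 2 lists rest on 1 weak peak each. Csf1r (Langerhans and T cell list) had 19 and 31 reads and a log2 ratio of 1.01. Twist2 (fibroblast list) had 12 and 25 reads and 1.32. Their control values, 13.4 and 8.47, lie under the filter minimum (13.96), so both passed only through ablation. The counts and medians include them. Ratios ran higher in weak peaks of the whole table, and how far these medians follow signal was not tested.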

How the data were processed

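ATAC-seq was made from 2 libraries, 1 per group. The build was mm10 per the submitters' processing notes, and the tools, named without roles or settings, were MACS2 2.1.0.20151222, Bowtie2 2.3.4.2, HTSeq, Picard and Trimmomatic. The authors deposited 1 table of normalized signal per peak and library. Every value was a whole multiple of 1 step (0.706 in control, 0.907 in ablation; 100% within 0.1 of a read), so reads were recovered. How the steps were set and peaks selected is not stated, nor whether starts count from 0 or 1. Columns were matched by name: the control column carries a number 2 that its sample title lacks, and the other says Exp where the title says Abl. Columns left unused numbered 0.

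Of 116411 rows 84594 were distinct peaks. The 3 mitochondrial peaks were left out, leaving 84591, and 76147 with a mean signal at or above the 10th percentile (13.96 normalized reads) were tested. Log2 ratios used a pseudocount of 1. Genes came from RefSeq (GRCm38.p6, the assembly behind mm10), without strand. A gene's value is the sum of its tested peaks. Intervals are Clopper-Pearson for ratios, Poisson for levels, and exact conditional intervals for ratios of ratios. A count of 0 (3 reads) allows 2.12 normalized reads in control and 2.72 in ablation. Members, lists and alternatives were chosen with earlier results of these data known. From each other list the text names the 2 highest and 2 lowest genes; for each member it names the 2 keratin genes nearest in log2 ratio, and all neighbours. For the other-cell markers only counts and ranges are given with medians and some of their highest and lowest genes. The symbols of 2 type II keratins, Krt74 and Krt85, were not matched to a protein-coding gene. Scripts were tested on simulated reads. Python 3.11.15, scipy 1.17.1, numpy 2.4.6, statsmodels 0.14.6, pandas 2.3.3 and matplotlib 3.10.9 were used.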

Additional observations from a re-analysis of the deposited data

Results flagged for a closer look

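Mitochondrial peaks, which no comparison of the keratins uses, held 31.2% of the reads in peaks in the ablation library and 7.31% in control.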

How the results depend on the processing

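No paired analysis was possible because each group has 1 library, and no library could be left out. Alternatives to the pseudocount, filter, scaling, assignment and definition of a gene's value gave 94 values, of which 74 stayed within the interval or within 1.5 times the count, and 20 did not. The interval was that of counting error for genes, but for the peak median a range between values of member peaks. Some of the 74 could not move, since no wound keratin peak is shared with another gene and all 12 passed the filter. Leaving out shared peaks or dropping the filter therefore changed none of these values, and the 74 do not measure stability. The signs of Krt6a, Krt17 and the peak median depend on the scale, while Krt16 was negative under each scaling by totals: with table totals, Krt6a stood at a log2 ratio of -0.0624, Krt16 at -0.485 and Krt17 at -0.17, the median of the 12 peaks at -0.0579, and 0 and 1 peaks were at least 2-fold and 1.5-fold higher. After loess, Krt16 stood at 0.0271 and Krt17 at 0.29, with 0 peaks at 2-fold. With overlapping peaks only, Krt6a was at -0.0195 and Krt17 at 0.33, with 0 peaks at 2-fold or 1.5-fold. By its strongest peak Krt6a was at -0.0195. By the median of peaks, Krt6a was at 0.52 and Krt16 at 0.0346. The single 2-fold peak was lost with a pseudocount of 5 (0), with the filter at the 25th percentile (0, and 1 at 1.5-fold) and with third-run peaks only (0), an alternative chosen after seeing the data. In the last 2 the cause is the loss of weak Krt6a peaks from the peaks tested; the other causes were not tested. Few reads limit the 2 peaks below Krt6a, and the missing replicates limit every value.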

Other observations

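Between the keratin genes, several peaks that count to neighbours had ratios beyond those of most wound keratin peaks. A peak inside Krt5, on chromosome 15 at 101710698 to 101710918, had 62.1 normalized reads in control and 140 in ablation, a ratio of 2.25 (1.72 to 2.96). Near Krt71, a keratin of the inner root sheath, a peak at 101729677 to 101730099 went from 9.17 to 31.7, a ratio of 3.46 (1.79 to 7.13). On chromosome 11 a peak 7891 bp above Krt14, at 100215401 to 100215834, went from 33.9 to 67.1, a ratio of 1.98 (1.36 to 2.91). In the other direction, a peak at 101589748 to 101590234, which counts to Krt75 and is the last listed peak before the stretch that holds Krt6b, had 33.2 and 12.7, a ratio of 0.383 (0.195 to 0.707). The Krt5 and Krt71 peaks are first listed in the first run, where 31.2% of tested peaks were at least 2-fold higher. The Krt75 peak is first listed in the second, where 16.1% were at least 2-fold lower. The Krt71 peak had a control value under the filter minimum (13.96) and passed only through ablation. These peaks were chosen after their values were seen.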
